A study of Ogataea polymorpha NCYC 495 leu1.1 with 8 samples.

Results

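A set of 9 autophagy genes of the methylotrophic yeast Hansenula polymorpha was compared between growth on glucose and 2 h after a shift to methanol. They were taken by probe identifier, 1 probe a gene: ATG8 (Hp48g37bm), ATG10 (Hp24g546m), ATG11 (Hp25g507), ATG19-like (Hp13g64), ATG20 (Hp16g331), ATG21 (Hp44g480), ATG22 (Hp18g58), ATG25 (Hp39g230) and ATG27 (Hp39g339). They are 9 of the 27 autophagy genes that the study tabulates and 9 of the 5999 gene probes on the array. Strain NCYC 495 leu1.1 was pre-grown on glucose at 37 °C, and 4 independent cultures were sampled both after 2 h on methanol (0.5%, started at OD 0.2 in fresh mineral medium) and at the moment of the shift (glucose, OD660 2.3). The RNA of both samples of a culture shared 2 two-colour Agilent arrays with exchanged dyes, so that 8 arrays measured 4 cultures. Both conditions come from the same strain and culture, and methanol, fresh medium, lower density and elapsed time cannot be told apart in this design.

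Macroautophagy wraps cytoplasm or organelles in a double membrane and delivers them to the vacuole for degradation. The core machinery starts the membrane, and a pair of ubiquitin-like conjugation systems, of which Atg8 is the best known product, expands it. In selective forms, such as pexophagy, which removes peroxisomes, or the Cvt pathway of Saccharomyces cerevisiae, which carries enzymes to the vacuole, receptors and adaptors tie a given cargo to that machinery. In H. polymorpha, peroxisomes multiply on methanol and are degraded by pexophagy when cells return to glucose.

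The methanol channel was checked with 4 enzymes of methanol growth. The log2 ratio of methanol over glucose was 7.83 ± 0.24 for formate dehydrogenase (FMD), 5.33 ± 0.40 for catalase (CAT), 3.91 ± 1.06 for dihydroxyacetone synthase (DHAS) and 3.43 ± 1.53 for alcohol oxidase (AOX) (SD, n = 4). All 4 were higher on methanol in every culture, and DHAS and AOX varied more between cultures than any of the 9 autophagy genes. In each channel, 90.6% to 98.3% of the gene spots rose well above background. All 9 autophagy probes had at least 1 of their 2 spots well above background in both conditions on 8 of 8 arrays. They had 0 saturated and 0 outlier spots. Culture 1 stood apart over all genes: its log2 ratios correlated with those of the other cultures with r between 0.89 and 0.93, whereas r was at least 0.97 among cultures 2, 3 and 4. Array brightness also differed, with culture medians of 1644 to 2989 in methanol and 1693 to 3046 in glucose, so that a signal is best read against the other condition of the same culture. Signals are arbitrary fluorescence units and were not compared between probes.

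Of the 9 genes, 4 rose more than 2-fold on methanol, 1 fell more than 2-fold and 4 did not pass the thresholds. A call needed a fold change over 2 or under 0.5, a limma adjusted p below 0.05 over all gene probes and a mean log2 signal (A-value) of at least 6. Over all gene probes, 19.1% were called up and 21.4% were called down. The 4 risers were ATG19-like, ATG8, ATG11 and ATG10, and the gene that fell was ATG25. The median log2 ratio of the 9 genes was 0.75, beside 0.04 over all gene probes. At any fold, 6 genes were higher and 2 lower with an adjusted p below 0.05, and ATG20 was on neither side, where 38.7% of all gene probes were higher and 36.6% lower.

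ATG8 encodes the ubiquitin-like protein that is coupled to a membrane lipid and stays on the growing autophagosome, in bulk as well as in selective autophagy. Its processed signal was 15186, 6625, 7460 and 10968 in cultures 1 to 4 on methanol, against 2589, 1266, 1020.2 and 1692 on glucose. Every methanol value lay above every glucose value, although the cultures differed in brightness. The log2 ratio averaged 2.63 ± 0.21 (SD, n = 4; 95% confidence interval 2.34 to 2.91), a 6.18-fold rise with a limma adjusted p of 1.24e-05. Among the 5478 gene probes with an A-value of at least 6, 292 rose by more.

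ATG10 encodes, in S. cerevisiae, the conjugating enzyme of the other ubiquitin-like system. Its signal was 2026, 1632, 1253 and 1655 in the methanol samples, against 871, 693, 460.4 and 703 in the glucose samples of cultures 1 to 4. The conditions did not overlap here either. The rise was smaller than for ATG8 but even between cultures, with log2 ratios of 1.22, 1.24, 1.44 and 1.24. Its mean of 1.28 ± 0.11 (SD, n = 4; interval 1.05 to 1.52) is 2.43-fold, with a limma adjusted p of 7.65e-05. Of all gene probes, 89.7% had a larger SD over the cultures.

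ATG11 and ATG19-like rose about as far as ATG8. ATG11 encodes the scaffold that in yeasts links cargo receptors to the core machinery in selective autophagy. Its signal was 30397, 11091, 12145 and 15509 on methanol, against 5286, 2629, 1962 and 3262 on glucose. Again the lowest methanol value exceeded the highest glucose value. The log2 ratio was 2.37 ± 0.25 (SD, n = 4; interval 2.06 to 2.68), or 5.17-fold, with a limma adjusted p of 2.44e-05, and 338 gene probes rose by more.

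ATG19-like is named for its likeness to ATG19, which in S. cerevisiae encodes the receptor of the Cvt cargo. What the H. polymorpha protein does is not known, and it is grouped with selective transport by its name only. The study states, from unpublished data, that the protein has no role in selective degradation of peroxisomes. The signal of ATG19-like was 33676, 12064, 14242 and 18634 on methanol, against 5584, 2596, 1700.3 and 2491 on glucose. The conditions lay far apart in all 4 cultures. This was the highest mean rise of the 9 genes, 2.69 ± 0.37 on the log2 scale (SD, n = 4; interval 2.30 to 3.09) or 6.47-fold, with a limma adjusted p of 3.48e-05. The cultures differed in its size, with log2 ratios of 2.59, 2.22, 3.07 and 2.90 in cultures 1 to 4.

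ATG25, the single faller past 2-fold, acts in macropexophagy of H. polymorpha, in which whole peroxisomes are wrapped and sent to the vacuole. Its signal was low on methanol, at 371, 242, 177 and 336, against 1456, 973, 879 and 1624 on glucose. Each methanol value was below all glucose values, and 0 of its 16 spots had the higher signal in methanol. The log2 ratio was -2.14 ± 0.17 (SD, n = 4; interval -2.41 to -1.87), a 4.41-fold decrease with a limma adjusted p of 1.95e-05. It was -1.97, -2.01, -2.31 and -2.27 in cultures 1 to 4, and 543 gene probes fell by more. Its direction was opposite to that of ATG11 in all 4 cultures.

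**Figure D1:**
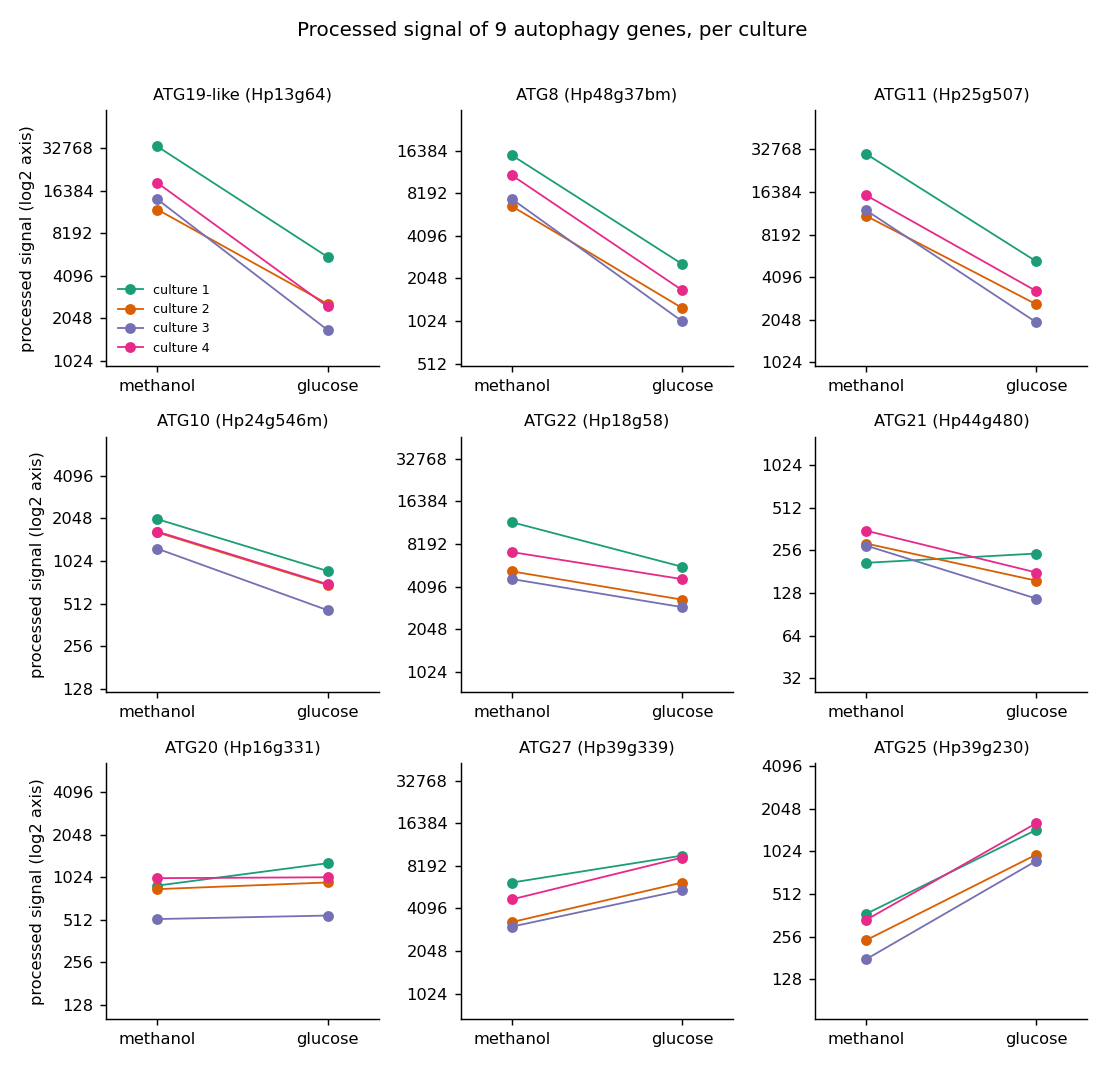
Processed signal of the 9 autophagy genes, 1 panel a gene, with methanol left and glucose right on a log2 axis in arbitrary units, and a line joining the samples of 1 culture (n = 4). The lines of ATG8, ATG10, ATG11, ATG19-like and ATG22 run higher in methanol in all 4 cultures. Those of ATG25, ATG27 and ATG20 run lower, for ATG20 only slightly in culture 4. For ATG21 culture 1 runs against the other cultures.

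ATG20 and ATG21 encode proteins that bind phosphoinositide lipids and serve the Cvt pathway in S. cerevisiae, ATG20 a sorting nexin and ATG21 a WD-repeat protein. For ATG21 the signals were low, at 209, 286, 277 and 353 on methanol, against 243, 156, 117 and 179 on glucose. Culture 1 was lower on methanol and the other cultures were higher, so that the conditions overlapped. The log2 ratios were -0.22, 0.87, 1.24 and 0.98. The mean of 0.72 ± 0.64 (SD, n = 4; interval 0.11 to 1.33), or 1.65-fold, had a limma adjusted p of 0.0383 and stayed under the 2-fold threshold.

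ATG21 was the most culture-dependent of the 9 genes: 9.52% of all gene probes had a larger SD, and it alone changed sign between cultures, as did 19.7% of all gene probes. Without culture 1, the culture that also stood apart over all genes, the mean was 1.03 ± 0.19 (SD, n = 3), 2.05-fold, with a limma adjusted p of 3.0e-04, and ATG21 was called up, beside 19.3% of all gene probes. Its adjusted p was 0.129, 0.139 and 0.112 without culture 2, 3 or 4, and 0.0600 in the arrays with methanol in Cy5. The part of culture 1's general departure in this result was not tested.

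ATG20 gave 893, 843, 518 and 1008 on methanol, against 1286, 939.95, 549 and 1023 on glucose. Methanol was the lower in each culture, most in culture 1, but 4 of 16 spots were higher in methanol and the conditions overlapped. With channels scaled to the same median, culture 4 turned, at 828 on methanol against 811 on glucose. The log2 ratio of -0.20 ± 0.23 (SD, n = 4; interval -0.49 to 0.10) did not pass the test, with a limma adjusted p of 0.181. Cultures 2, 3 and 4 had log2 ratios of -0.16, -0.08 and -0.02, against -0.53 in culture 1.

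ATG22 and ATG27 changed by less than 2-fold and in opposite directions. ATG22 encodes, in S. cerevisiae, a vacuolar membrane protein that returns amino acids to the cytosol after degradation. Its signal was 11667, 5243, 4629 and 7176 on methanol, against 5655, 3309, 2929.6 and 4622 on glucose. Methanol was higher in each culture, but across cultures the values overlapped. The log2 ratio was 0.75 ± 0.20 (SD, n = 4; interval 0.47 to 1.03), 1.68-fold, with a limma adjusted p of 0.00134.

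ATG27 encodes a membrane protein that in S. cerevisiae helps to bring membrane to the site where the autophagosome forms. Its signal was 6231, 3275, 3040.1 and 4738 on methanol, against 9664, 6227, 5497 and 9349 on glucose. The values of the conditions overlapped through the brighter culture 1, yet methanol was lower in each culture and in all 16 spots. The log2 ratio was -0.85 ± 0.15 (SD, n = 4; interval -1.10 to -0.59), a 1.80-fold decrease with a limma adjusted p of 5.43e-04. For ATG22 and ATG27 the limma adjusted p was 0.0931 and 0.0542 when the pairing of the samples within a culture was ignored.

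Removing the difference in brightness separated both genes. With every channel scaled to the same median, ATG22 lay between 5890.1 and 9093 on methanol, against 3664 to 4291 on glucose, and ATG27 between 3848 and 4856 on methanol, against 7090.5 to 7564 on glucose. The conditions then did not overlap for 7 of the 9 genes, and for 5 of the 9 genes as processed. Over all gene probes, 36.8% lay wholly higher and 32.7% wholly lower on methanol after scaling, and 20% and 21.8% as processed. ATG20 and ATG21 overlapped on either scale.

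**Figure D2:**
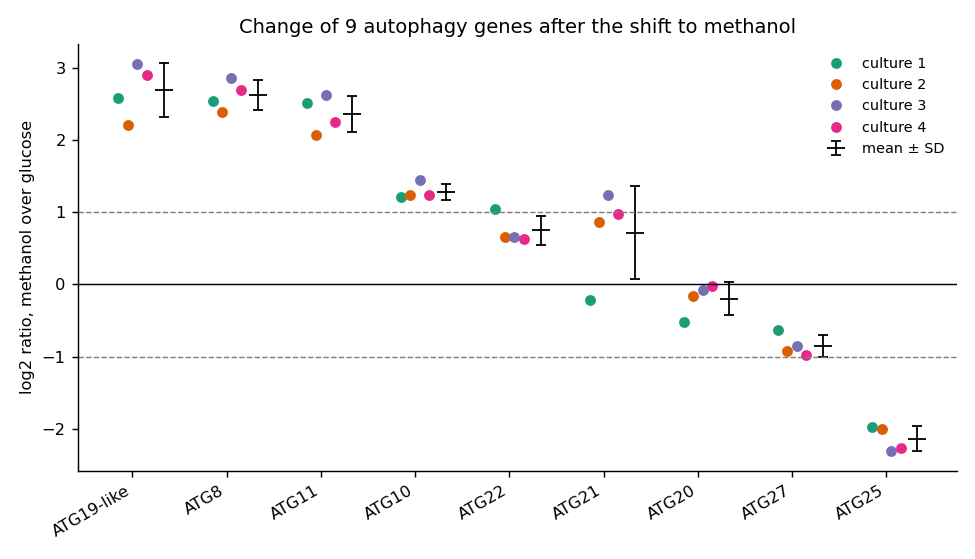
Log2 ratio of methanol over glucose for each of the 9 genes, with 1 point a culture, a bar at the mean and an error bar of 1 SD (n = 4), and dashed lines at 2-fold. ATG19-like, ATG8, ATG11 and ATG10 lie above 2-fold in all 4 cultures and ATG25 lies below it in all 4, while the points of ATG21 spread from -0.22 to 1.24.

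In order of the log2 ratio, ATG19-like came first, then ATG8, ATG11, ATG10, ATG22, ATG21, ATG20, ATG27 and ATG25. The first neighbours were not separated: ATG19-like exceeded ATG8 by 0.07 ± 0.18 (SD over 4 cultures), in 3 of 4 cultures. ATG8 exceeded ATG11 by 0.26 ± 0.17, in 4 of 4 cultures. A wider gap followed, with ATG11 above ATG10 by 1.09 ± 0.20 in 4 of 4 cultures. ATG10 exceeded ATG22 by 0.53 ± 0.26. The order of ATG22 and ATG21 was not resolved, since their difference of 0.03 ± 0.84 had that sign in 1 of 4 cultures. Below them, ATG21 exceeded ATG20 by 0.92 ± 0.43, ATG20 exceeded ATG27 by 0.65 ± 0.37 and ATG27 exceeded ATG25 by 1.29 ± 0.16, each in 4 of 4 cultures.

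The other 18 tabulated autophagy genes moved in a narrower band. Of these, 11 were called up and 0 down, beside 19.1% and 21.4% of all gene probes. With a limma adjusted p below 0.05 at any fold, 17 were higher, beside 38.7% of all gene probes, and 1 did not pass the test. Their median log2 ratio was 1.14, with a range of 0.07 to 1.94, or 1.05- to 3.83-fold. The 9 genes described above reached further on both sides. They held the 3 largest rises of all 27 genes and all 3 negative means, those of ATG25, ATG27 and ATG20. The 9 were chosen with earlier results of these data known, so this reach, here and by role below, is a description only. Together, 15 of 27 (55.6%) were called up and 1 of 27 (3.7%) was called down.

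The genes were also grouped by role, from textbook knowledge that comes mostly from S. cerevisiae; the counts called up again stand beside 19.1% of all gene probes. The other 6 genes of the conjugation systems had a median log2 ratio of 1.15 and a range of 0.72 to 1.93, and 4 of them were called up. ATG8 lay above that range and ATG10 within it. The other 7 genes of initiation and membrane supply had a median of 0.95 and a range of 0.07 to 1.88, with 3 called up, and ATG27, assigned to the same role, lay below all of them. The other 4 genes of selective transport ranged from 0.80 to 1.94 with a median of 1.28, and 3 were called up. Within that role ATG11 and ATG19-like lay above the range, while ATG20 and ATG25 lay below it. ATG21 lay below it with all 4 cultures, at 0.72. Without culture 1 the value of ATG21 was 1.03, beside a median of 1.33 for the other 4 genes of this role. The range of those genes was not taken without culture 1.

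**Figure D3:**
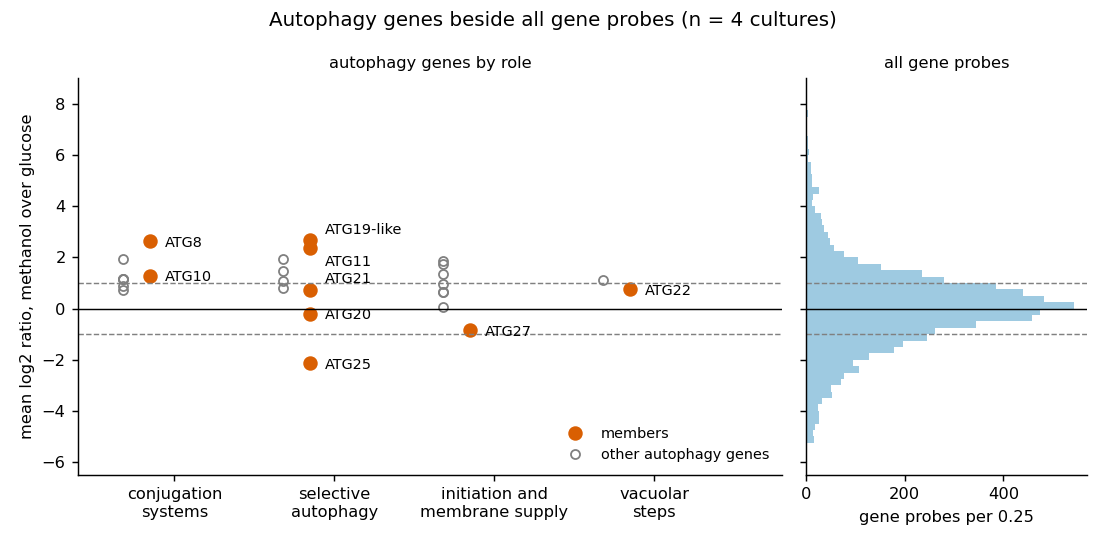
Mean log2 ratio of methanol over glucose of the 27 tabulated autophagy genes by role, with the 9 named genes as filled points and the other 18 as open points, and dashed lines at 2-fold. The open points lie between 0.07 and 1.94, and the filled points extend from -2.14 to 2.69.

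The exchanged dyes gave a separate look at each value. The log2 ratio with methanol in Cy5 and that with glucose in Cy5 were 2.59 and 2.67 for ATG8, 2.38 and 2.36 for ATG11, and -2.13 and -2.16 for ATG25. These genes differed little between the labellings. ATG10 gave 1.16 with methanol in Cy5 and 1.40 with glucose in Cy5, ATG22 gave 0.64 and 0.86 in the same order, and ATG21 gave 0.62 and 0.82. For these 3 genes and for ATG20, with -0.33 and -0.06, the labelling with methanol in Cy5 gave the lower ratio in all 4 cultures. For ATG19-like, with 2.76 and 2.62, it gave the higher ratio in all 4 cultures. No gene changed its sign or its side of 2-fold in the mean of either labelling.

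**Figure D4:**
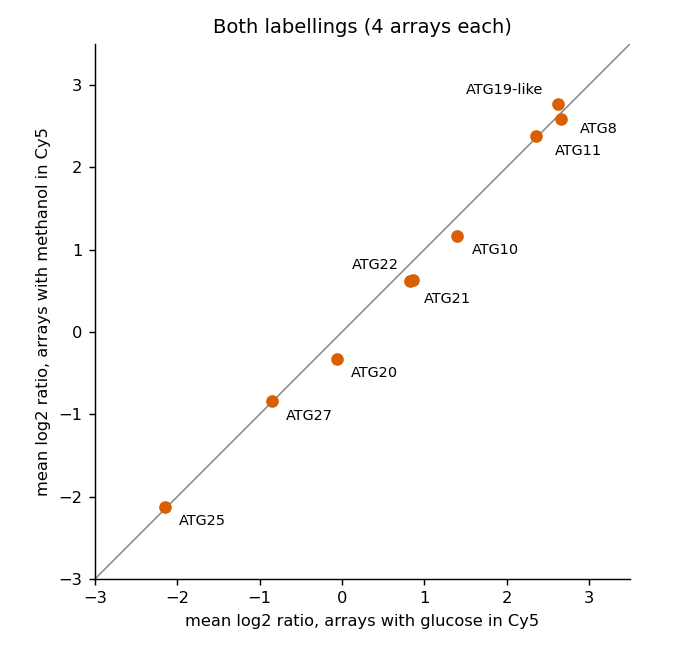
Mean log2 ratio of methanol over glucose for each of the 9 genes in either labelling. Each mean is over the 4 arrays with methanol in Cy5 or the 4 arrays with glucose in Cy5. The means of a gene differ by at most 0.26 between the labellings, the difference for ATG20.

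Across the array, the genes most like 4 of these were sought by the Euclidean distance of their log2 ratios over the 4 cultures, among the 5395 gene probes with an A-value of at least 6 outside the tables of the study. For ATG8 the nearest were Hp8g623, annotated by the study as similar to a probable acetyltransferase of Schizosaccharomyces pombe, at a distance of 0.208, and Hp46g99, a putative aminopeptidase P, at 0.275. For ATG11 they were Hp5g3 at 0.178 and Hp27g82 at 0.210. For ATG19-like they were Hp16g23, a conserved hypothetical protein, at 0.0945, and Hp24g1406, described as similar to a glyoxylate pathway regulator of Yarrowia lipolytica, at 0.367. For ATG25 they were Hp37g49 at 0.0994 and Hp8g205 at 0.116. With 4 cultures and so many candidates, such likeness is a description of these values.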

How the data were processed

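Both conditions of 4 cultures were hybridised as dye-swapped pairs on 8 arrays. For every array the authors deposited scanner output of Feature Extraction (version 9.5.3.1). As deposited by the authors, its processed signals are intensity values of a spot in each dye, detrended over the array and normalised between dyes. They also deposited a series table of log10 ratios, whose values stand 5 rows from their identifiers (largest difference after the shift 0, 5 rows without a value); it served, shifted, as an alternative. No other column of per-sample values was present.

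For each spot the log2 ratio of methanol over glucose was taken, leaving out outlier spots and keeping saturated ones. Ratios were averaged over the 2 spots of an array and next over the dye swap, since both arrays of a culture hold the same RNA (n = 4). An intercept was fitted in limma 3.58.1 (R 4.3.3; prior 2.81 degrees of freedom), with Benjamini-Hochberg adjustment over 5999 gene probes, of which 521 had an A-value below 6. The fit was tested on simulated data. Confidence intervals are 95% and moderated. The labels describe the cultures as independent. Python 3.11.15 with pandas 2.3.3, numpy 2.4.6 and matplotlib 3.10.9 made the tables and plots.

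The named genes are the 9 autophagy probes, 4 methanol enzymes as a check, and the 2 nearest gene probes of ATG8, ATG11, ATG19-like and ATG25. The 18 other autophagy genes were given as counts. Members, lists and roles were chosen with earlier results of these data known. Gene names are those of the study; no probe identifier was matched to the reference annotation, so no positions are given. The number of cultures, 4, limits the precision.

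After the mean of each condition was taken away, the methanol and glucose channels of a culture correlated across genes with r between 0.247 and 0.453, but they share arrays; the pairing comes from the labels, which give both RNAs of an array the same culture number. Alternatives were normexp (offset 50) or plain mean signals with loess, median centring, the Feature Extraction ratio, the series table, the arithmetic mean of spot ratios, either labelling alone, a dye term with culture as random block (statmod 1.5.0), the row of arrays as a block, no replicate block, no A-value minimum or 8, only probes above background, unadjusted p, trend and robust moderation, treat, each culture left out, and scaled channels.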

Additional observations from a re-analysis of the deposited data

Results flagged for a closer look

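In ATG10, culture 3 stood away from the other cultures, with a log2 ratio of 1.44 against 1.22 to 1.24 in the other 3 (gap to the nearest culture over the whole range 0.922, past Dixon's 95% critical value). In ATG22, culture 1 stood away, with a log2 ratio of 1.05 against 0.63 to 0.66 (gap over range 0.929). Both genes were higher on methanol in every culture. The test covered 27 sets of 4 values, and chance alone marks about 1 in 20.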

How the results depend on the processing

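ATG8, ATG10, ATG11, ATG19-like and ATG25 kept their calls under all 20 alternatives with a test, and ATG20, ATG22 and ATG27 were called under none. Some alternatives could not remove a call. Unadjusted p and no A-value minimum only loosen the criteria, and the lowest A-value of the called genes, 9.15 for ATG25, exceeds the minimum of 8. The shifted series table holds the same values as the Feature Extraction ratio, so these are not separate checks. The number of the 9 genes called up was 4 to 5 and the number called down was 1 throughout. With no replicate block, 4 were called up and 1 down, and 1149 and 1286 of all gene probes, so that no call among the 9 genes changed, but the limma adjusted p of ATG21, ATG22 and ATG27, which were not called, moved above 0.05 (0.109, 0.0931 and 0.0542). With treat against a 2-fold change, which tests a stricter hypothesis, 6 of the 18 other autophagy genes and 760 of all gene probes were called up, against 11 and 1145. Leaving out 1 culture at a time gave a median log2 ratio of the 9 genes of 0.78 to 1.03 and a log2 ratio of ATG21 of 0.55 to 1.03, both highest without culture 1, where ATG21 was called up. The adjusted p of ATG21 ranged from 3.0e-04 to 0.139 over the alternatives that test against no change, and was 1 with treat. The log2 ratio of ATG25, -2.14 in the main fit, ranged over the alternatives from -2.20 without culture 1 to -1.87 with normexp and loess. With 4 cultures, a change the size of that of ATG20 was not resolved.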
